A study of Mus musculus with 7 samples.

Results

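The PRL phosphatases (phosphatases of regenerating liver) are a family of 3 genes, Ptp4a1, Ptp4a2 and Ptp4a3, and their expression was followed across 7 liver libraries. They were taken by gene name from a table of 27810 gene records, in which 4 records carry one of the 3 names because Ptp4a1 is listed as 2 records, ENSMUSG00000026064 and ENSMUSG00000117310. Both lie on the minus strand of chromosome 1 and overlap, and no other gene overlapped them on that strand. The family was selected on FPKM values of these same libraries, with earlier results known, so the members' levels and differences are given as a description, without p-values.

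All mice were wild-type male C57BL/6J animals fed from 5 weeks of age on a diet (WD) of 40% fat, 20% fructose and 2% cholesterol. The labels call the model WD-induced NASH, a fatty liver disease with inflammation. After 32 weeks of diet each mouse had 1 injection into the tail vein, of mesenchymal stromal cells from human umbilical cord (MSC; 3 libraries, replicates 0, 1 and 2) or of saline (vehicle; 3 libraries, replicates 1, 3 and 4), and livers were collected after 40 weeks. A further saline library, replicate 6, has the word Cancer in its label, with no word on what it refers to, and is shown by itself. Whether each library is a separate animal is not stated, so every p-value measures only the spread between libraries, which may be technical.

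PRL enzymes are small tyrosine phosphatases whose catalytic loop holds a reactive cysteine and whose tail is farnesylated, which anchors them to membranes. They bind the CNNM magnesium transporters, and PRL-1, the product of Ptp4a1, was first described as a gene switched on early in regenerating rat liver. Human PRL-3, from PTP4A3, is known for raised levels in metastatic colorectal cancer.

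The coding bases of the catalytic loop and of the tail show how close the 3 genes are. In the GENCODE M21 annotation of GRCm38 the full-length reading frames of both Ptp4a1 records are identical (522 of 522 bases, 173 codons). Ptp4a1 and Ptp4a2 share 73.6% of aligned coding bases, Ptp4a1 and Ptp4a3 68.5%, and Ptp4a2 and Ptp4a3 66.7%. The longest exact run in common between different members was 18 bases, between Ptp4a1 and Ptp4a2. The loop is given from its histidine codon to its arginine codon, with the catalytic cysteine codon and the arginine codon in capitals:
Ptp4a1 loop: catTGTgtcgcaggccttggcAGA
Ptp4a2 loop: catTGTgttgcaggattgggaAGG
Ptp4a3 loop: cacTGTgtggcgggcctgggaAGG
The last codons and the stop follow, with the codon of the farnesylated cysteine in capitals:
Ptp4a1 tail: TGTtgtattcaataa
Ptp4a2 tail: TGCtgtgttcagtag
Ptp4a3 tail: TGCtgcgtcatgtag

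The Ptp4a1 records differ in where transcription is annotated to start. ENSMUSG00000026064 spans 30940302-30949309 and ENSMUSG00000117310 spans 30940302-30949770 on chromosome 1 of GRCm38. The full-length coding transcript of ENSMUSG00000026064 (4236 bases) and the longest transcript of ENSMUSG00000117310 (4145 bases) have 6 exons each and share 5 of them. The first exon, of 313 bases in ENSMUSG00000026064 and 222 bases in ENSMUSG00000117310, is the exon that differs, and their starts lie 461 bases apart. The shared part is 3923 bases, 92.6% of the ENSMUSG00000026064 transcript and 94.6% of the ENSMUSG00000117310 transcript. ENSMUSG00000026064 also holds 2 retained-intron transcripts, and with its first exon these give it 1618 exonic bases of its own. Of the 3 annotated transcripts of ENSMUSG00000117310, 1 has the phosphatase frame and the others have annotated frames of 44 and 43 codons. The deposited data list 4 transcripts for this record, 3 of them found in GENCODE M21. The annotation behind the FPKM values may therefore differ from the structure given here.

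**Figure D1:**
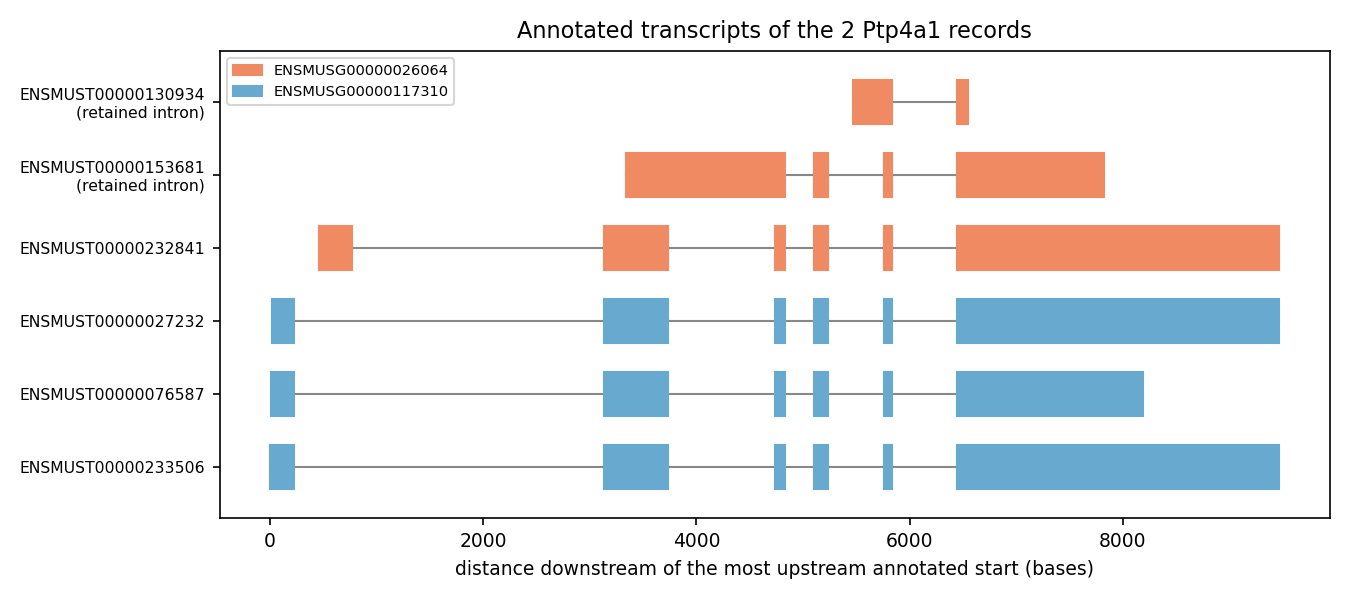
Annotated transcripts (GENCODE M21) of ENSMUSG00000026064 (orange) and ENSMUSG00000117310 (blue); boxes are exons and the x axis is the distance in bases downstream of the most upstream annotated start. The records share the 5 downstream exons of their full-length transcripts and have separate first exons 461 bases apart at their starts.

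The 250 bases before the RefSeq start of Ptp4a1 (GRCm38.p6, chr1:30949756-30950005, minus strand) end where the transcript of ENSMUSG00000117310 with the phosphatase frame starts, and overlap the first bases of that record's longest first exon. The stretch is shown because it lies at 1 of the 2 starts that the records tell apart. Capitals mark a TATA box (TATAAA, found on the forward strand 32 bases before the start) and a CCAAT box (CCAAT, found on the reverse strand 65 bases before the start), which do not overlap. On either strand, TATAAA occurred in 12.4% and CCAAT in 33.8% of the 250-base stretches before all 32851 RefSeq starts tabulated.
Ptp4a1 upstream: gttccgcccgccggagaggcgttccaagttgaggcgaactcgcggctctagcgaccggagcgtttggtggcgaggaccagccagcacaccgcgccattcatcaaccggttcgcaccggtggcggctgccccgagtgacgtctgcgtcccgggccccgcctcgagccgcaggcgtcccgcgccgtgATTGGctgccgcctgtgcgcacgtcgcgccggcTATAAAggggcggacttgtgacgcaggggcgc

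Levels are FPKM as deposited by the authors, fragments scaled for gene length and library size, and without counts their depth is unknown. A level of at least 1 FPKM was held by 9655 genes in the library with fewest (MSC replicate 2) and by 12041 genes in the Cancer-labelled library. MSC replicate 1 stood apart in its mitochondrial genes, at 36.4% of its FPKM, against 16.5% to 23.3% elsewhere. The 8 hepatocyte markers summed to 25030 to 37433 FPKM in MSC, 30369 in the Cancer-labelled and 19399 to 28390 in vehicle libraries, with none at 0.

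Ptp4a1 record ENSMUSG00000026064 was higher in MSC livers. It measured 15.6, 15.8 and 10.5 FPKM in MSC replicates 0, 1 and 2, 4.11 FPKM in the Cancer-labelled library, and 4.66, 1.53 and 2.77 FPKM in vehicle replicates 1, 3 and 4. The lowest MSC library lay above the highest vehicle library, and the Cancer-labelled library lay inside the vehicle range. The group means were 14.0 ± 2.98 FPKM in MSC and 2.99 ± 1.58 FPKM in vehicle livers (SD, n = 3 each), a ratio of 4.68. On log2(FPKM + 1), MSC minus vehicle was 1.97 ± 0.32 (SE). Rescaled to the genes not encoded in mitochondria, the levels were 16.3, 16.1 and 9.48 in MSC, 4.48 in the Cancer-labelled and 4.94, 1.47 and 2.63 in vehicle libraries, again without overlap. Of the 3 member records that passed the filter on low values, 1 had groups that did not overlap with MSC higher, beside 2.17% of all 10534 genes tested; the choice of the family used this contrast, so nothing is read from that count.

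Record ENSMUSG00000117310, which holds most of the Ptp4a1 signal, did not separate the groups. It measured 50.6, 21.5 and 44.7 FPKM in MSC replicates 0, 1 and 2, 29.6 FPKM in the Cancer-labelled library, and 50.7, 40.9 and 30.1 FPKM in vehicle replicates 1, 3 and 4. MSC replicate 1 was the lowest of the 7 libraries, and the Cancer-labelled library lay just under the vehicle range. The means were 38.9 ± 15.4 FPKM in MSC and 40.6 ± 10.3 FPKM in vehicle livers (SD, n = 3 each), and MSC minus vehicle was -0.11 ± 0.36 on log2(FPKM + 1) (SE).

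Summed over both records, Ptp4a1 measured 66.3, 37.3 and 55.2 FPKM in MSC replicates 0, 1 and 2, 33.7 FPKM in the Cancer-labelled library, and 55.3, 42.5 and 32.9 FPKM in vehicle replicates 1, 3 and 4. The groups overlapped: 1 MSC library lay above all vehicle libraries and 1 lay under the vehicle mean. The sum averaged 52.9 ± 14.6 FPKM in MSC and 43.5 ± 11.3 FPKM in vehicle livers (SD, n = 3 each), a ratio of 1.22. On log2(FPKM + 1) the difference was 0.27 ± 0.28 (SE), against 1.97 for ENSMUSG00000026064 by itself. It ran from 0.09 to 0.50 as each library was left out in turn.

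**Figure D2:**
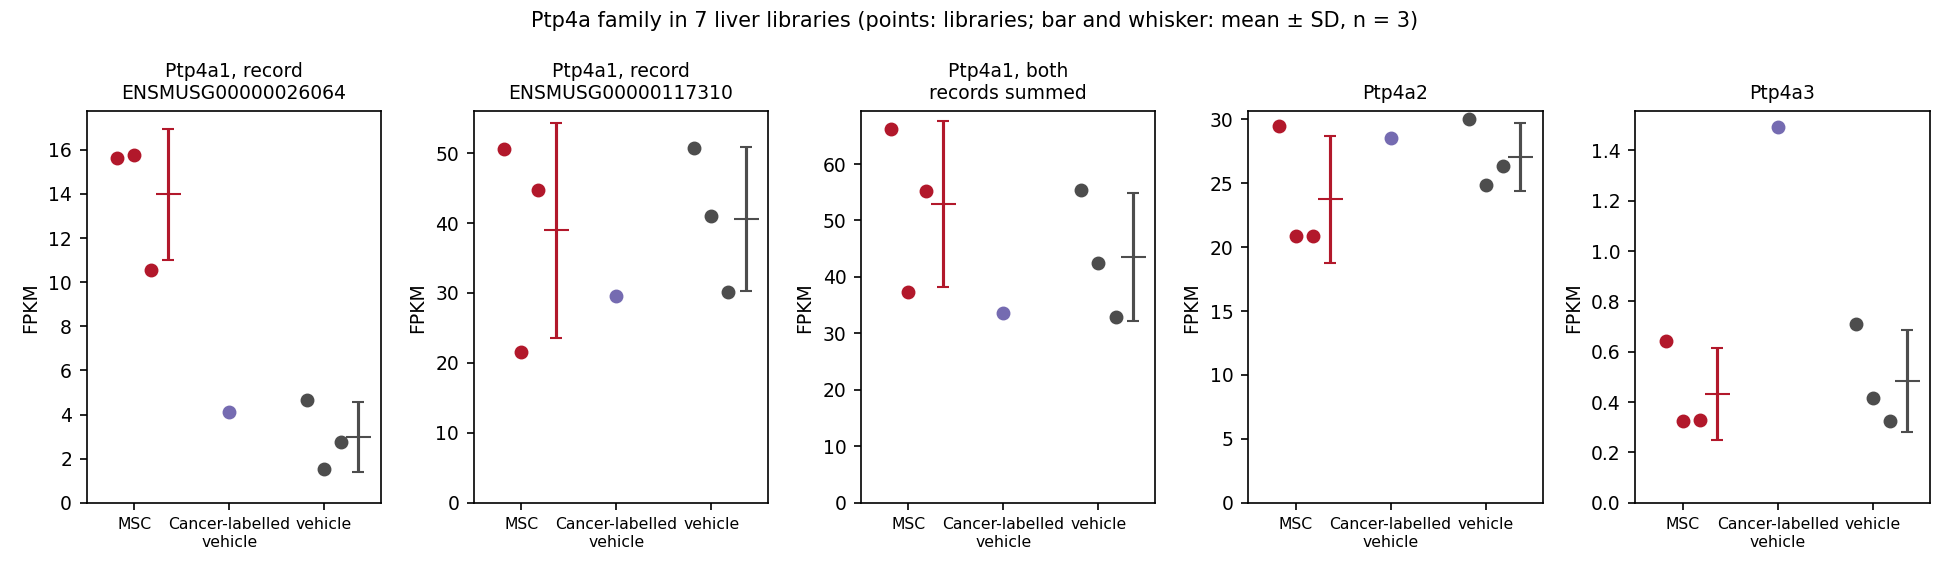
FPKM (y axes from 0, scaled per panel) of both Ptp4a1 records, their sum, Ptp4a2 and Ptp4a3 in MSC (red), Cancer-labelled vehicle (purple) and vehicle (grey) libraries; points are libraries, and the bar with whiskers is the mean ± SD of 3. The MSC and vehicle points are apart for ENSMUSG00000026064 (10.5 FPKM or more against 4.66 or less) and overlap in the other panels.

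The division of Ptp4a1 between its records is computed from these same values, so it restates them and is no separate result. ENSMUSG00000026064 held 23.6%, 42.3% and 19.1% of the summed Ptp4a1 FPKM in MSC replicates 0, 1 and 2, 12.2% in the Cancer-labelled library, and 8.42%, 3.597% and 8.44% in vehicle replicates 1, 3 and 4. Every MSC library had a larger share than every library that received saline. The mean share was 28.3% ± 12.3 in MSC and 6.82% ± 2.79 in vehicle livers (SD, n = 3 each). MSC replicate 1 had the largest share and also the largest mitochondrial share of the 7 libraries; the share within Ptp4a1 does not depend on how a library is scaled. How the deposited pipeline divided reads that fall in shared exons is not stated, and its part in the division was not tested.

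**Figure D3:**
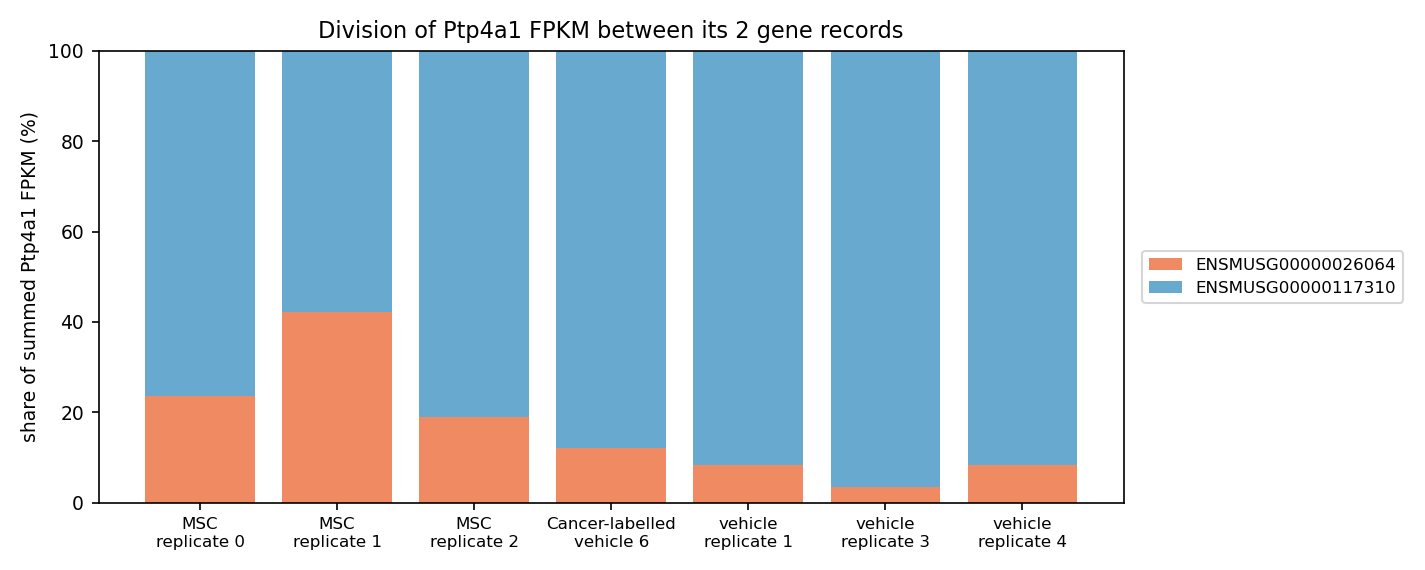
Share (%) of the summed Ptp4a1 FPKM held by ENSMUSG00000026064 (orange) and ENSMUSG00000117310 (blue) in each library. The orange part is 19.1% to 42.3% in the MSC libraries, 12.2% in the Cancer-labelled library and 3.597% to 8.44% in the vehicle libraries.

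The same table held 47 pairs of overlapping records on 1 strand under 1 name, 7 of them with both records at a mean of at least 1 FPKM. Among these 7, the records of 6 pairs had differences of opposite sign between MSC and vehicle livers. Within the 7, Ptp4a1 and Septin2, a cytoskeletal GTPase, were the pairs in which a record differed by at least 1 on log2(FPKM + 1). For Septin2 the differences were 1.65 for ENSMUSG00000116048, -0.80 for ENSMUSG00000026276 and 0.36 for the sum. None of the 7 reached 1 when its records were summed. Nnt, the mitochondrial transhydrogenase, had -0.58 and 0.11 for its records and -0.01 for their sum.

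**Figure D4:**
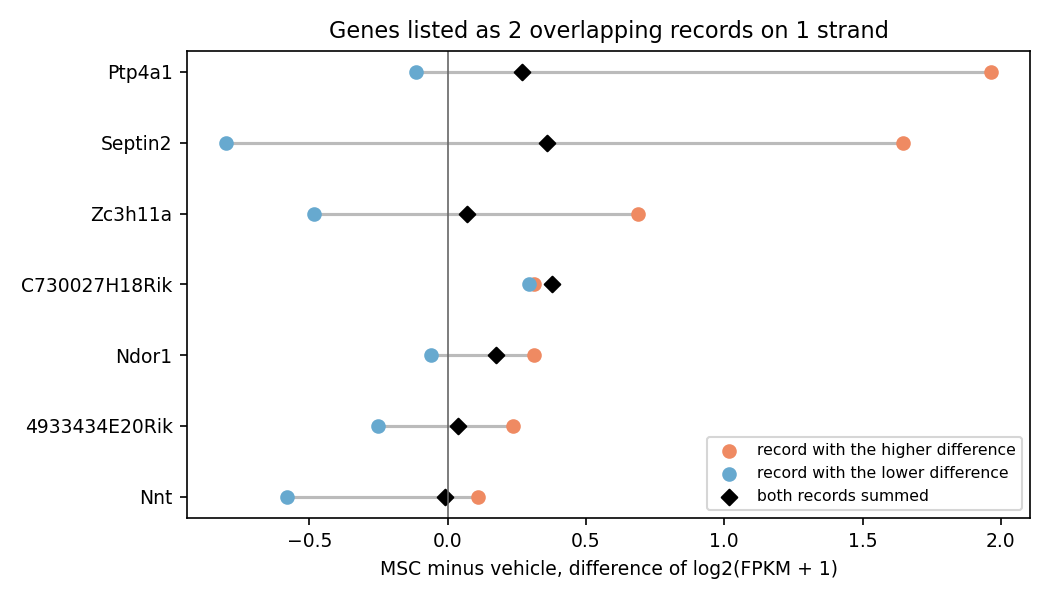
MSC minus vehicle differences of log2(FPKM + 1) for the 7 genes listed as 2 overlapping records with means of at least 1 FPKM; orange and blue points are the records with the higher and the lower difference, and black diamonds their sum. Ptp4a1 spans -0.11 to 1.97 with the sum at 0.27, and Septin2 -0.80 to 1.65 with the sum at 0.36.

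Ptp4a2, on the plus strand of chromosome 4 (129811219-129839366, GRCm38), encodes PRL-2, and had the narrowest range of the 4 records over the 7 libraries, 0.51 on log2(FPKM + 1). It measured 29.4, 20.9 and 20.9 FPKM in MSC replicates 0, 1 and 2, 28.6 FPKM in the Cancer-labelled library, and 30.05, 24.9 and 26.3 FPKM in vehicle replicates 1, 3 and 4. MSC replicates 1 and 2 lay under the lowest vehicle library while MSC replicate 0 lay among the vehicle libraries, so the groups overlapped. The means were 23.7 ± 4.95 FPKM in MSC and 27.1 ± 2.67 FPKM in vehicle livers (SD, n = 3 each), a difference of -0.20 ± 0.17 on log2(FPKM + 1) (SE).

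Ptp4a3, on the plus strand of chromosome 15 (73723145-73758766, GRCm38), encodes PRL-3 and was under 1 FPKM in 6 of 7 libraries. It measured 0.642, 0.324 and 0.330 FPKM in MSC replicates 0, 1 and 2, 1.49 FPKM in the Cancer-labelled library, and 0.710, 0.415 and 0.324 FPKM in vehicle replicates 1, 3 and 4. The MSC and vehicle groups overlapped (0.432 ± 0.182 against 0.483 ± 0.202 FPKM; SD, n = 3 each), with a difference of -0.05 ± 0.15 on log2(FPKM + 1) (SE). Ptp4a3 did not pass the filter of 1 FPKM in 3 libraries for the MSC comparison.

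The Cancer-labelled library held the highest Ptp4a3 of the 7 libraries, 3.09 times the vehicle mean. With 1 library there is no replicate check. On log2(FPKM + 1) it exceeded the vehicle mean by 0.76, short of the 2-fold mark of 1 used for that library; the difference was 1.504 at a pseudocount of 0.1 and 1.15 after scaling to TPM, past that mark. All genes tested had a median difference of 0.25 in this comparison, and after centring the libraries Ptp4a3 differed by 0.45. The other records differed by 0.44 (ENSMUSG00000026064), -0.41 (ENSMUSG00000117310) and 0.08 (Ptp4a2). After centring they were 0.13, -0.72 and -0.23, so that Ptp4a2 changed sign, and as each vehicle library was left out they ran from 0.15 to 0.73, from -0.61 to -0.24 and from 0.02 to 0.15. None of the 4 records was past the mark, beside 7.05% of 12111 genes past it as higher and 1.21% as lower.

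Bile duct markers were also highest in that library. Their sum was 31.4 to 145 FPKM in MSC, 522 FPKM in the Cancer-labelled and 48.1 to 166 FPKM in vehicle libraries, with none at 0, and 7 of 7 were past the mark as higher. Most of this sum was Spp1, at 28.7 to 139 FPKM in MSC, 453 FPKM in the Cancer-labelled and 45.1 to 158 FPKM in vehicle libraries. The Cancer-labelled library also lay above the vehicle range for B and plasma cell markers (2.00 to 5.31 FPKM in MSC, 11.95 in the Cancer-labelled and 3.604 to 4.94 in vehicle libraries; 2 of 6 genes above the range, Jchain the highest; Cd79a at 0 in at least 1 library), T cell markers (1.04 to 4.71, 5.31 and 1.11 to 2.89; 4 of 6 genes above) and the proliferation sum (24.5 to 38.0, 43.5 and 15.8 to 38.7). That sum rests on Ccnd1 (24.2 FPKM in the Cancer-labelled library): 3 of the 12 proliferation genes lay above the vehicle range there and 9 inside it. The sums of macrophage markers (28.7 to 121, 77.4 and 50.8 to 154 FPKM), stellate cell markers (56.8 to 100.3, 89.0 and 91.1 to 123) and sinusoidal endothelial markers (8.46 to 53.6, 27.8 and 14.0 to 39.4) in the same order of groups had the Cancer-labelled library inside or under the vehicle range. Gene by gene, 2 of 7 macrophage, 3 of 8 stellate and 2 of 7 endothelial markers lay above that range, and 2, 3 and 0 lay under it. The part of these cells in the Ptp4a3 level was not tested, and in bulk tissue fewer cells of a type and less RNA per cell cannot be told apart. Between MSC and vehicle livers the 5 red cell markers all had negative differences, with a median of -1.82 and sums of 105 to 224 FPKM in MSC, 563 in the Cancer-labelled and 210 to 903 FPKM in vehicle libraries. Macrophage markers had 6 of 6 tested with a negative difference, stellate cell markers 7 of 8 and endothelial markers 6 of 7. The groups overlapped for every tested macrophage, stellate cell and endothelial marker, and 0 of them had an unadjusted limma p under 0.05. No loss of these cells is read from the signs. Of the 5 red cell markers, 4 had an unadjusted limma p under 0.05, beside 5.59% of all genes (smallest limma adjusted p = 0.626). The groups did not overlap for 1 of the 5, Hba-a2, which was lower in MSC, beside 7.84% of all genes. Neutrophil sums were 4.20 to 41.7 FPKM in MSC, 6.54 in the Cancer-labelled and 10.9 to 25.8 FPKM in vehicle libraries, with Cxcr2 and Ly6g at 0 in at least 1. The part of these cells in the Ptp4a1 division was not tested.

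Within each library the order of the 3 genes was the same. The Ptp4a1 sum exceeded Ptp4a2 in 7 of 7 libraries, by 1.18 to 2.64 times, and Ptp4a2 exceeded Ptp4a3 in 7 of 7, by 19.1 to 81.2 times. ENSMUSG00000117310 and Ptp4a2 were close neighbours in this order, at 1.03 to 2.14 times, with overlapping ranges over the libraries. As a share of the family's FPKM, Ptp4a1 held 68.3% ± 4.26 in MSC and 60.7% ± 4.83 in vehicle livers, Ptp4a2 31.2% ± 4.21 and 38.6% ± 4.95, and Ptp4a3 0.551% ± 0.117 and 0.661% ± 0.146 (SD, n = 3 each). Those shares in the Cancer-labelled library were 52.8%, 44.8% and 2.34%. The family total was 77.1 ± 19.0 FPKM in MSC and 71.1 ± 13.6 FPKM in vehicle livers (SD, n = 3 each), and 63.7 FPKM in the Cancer-labelled library.

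The genes whose pattern over the 7 libraries was most like that of ENSMUSG00000026064 were sought among 7481 protein-coding genes with a mean of at least 2 FPKM, by the root mean square difference of log2(FPKM + 1) after centring each gene. The nearest were Manf (0.43), Sdf2l1 (0.44), Spata2l (0.48), Ciart (0.53) and Calr (0.54). Manf, a secreted endoplasmic reticulum protein, measured 16.7, 12.6 and 11.0 FPKM in MSC, 5.39 in the Cancer-labelled and 7.38, 4.66 and 3.92 FPKM in vehicle libraries. Calr, the endoplasmic reticulum chaperone calreticulin, measured 241, 163 and 180 FPKM in MSC, 105 in the Cancer-labelled and 150, 75.4 and 93.8 FPKM in vehicle libraries. Both had every MSC library above every vehicle library, as had Sdf2l1 and Spata2l, whereas Ciart did not. Over all 10534 genes tested the share was 2.17%. These genes were picked for likeness to a record without overlap, so nothing is read from their own. For ENSMUSG00000117310 the nearest were Enpp2 (0.17), Atg10 (0.18), Dars (0.18), Gdf2 (0.20) and Uox (0.20). These lists hold the same libraries and the same scaling as the members and carry no test.

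Genes around the PRL phosphatases were tested in the fit across all genes. Of 171 genes in 7 lists, 111 were tested between MSC and vehicle livers and none passed limma's adjusted p threshold of 0.05, while 9 had an unadjusted p under 0.05. Over all 10534 genes 2 passed, the pseudogene Mup-ps18 as lower and Gm20716 as higher in MSC (0.00949% in each direction), and 589 genes (5.59%) had an unadjusted p under 0.05. The groups did not overlap for 2 list genes that were higher and 3 that were lower, beside 2.17% and 7.84% of all genes. Without vehicle replicate 1 the fit called 8 genes.

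The CNNM transporters, the membrane partners of PRL enzymes, were low in these livers. Cnnm2 measured 1.42 ± 0.442 FPKM in MSC and 1.49 ± 0.207 FPKM in vehicle livers, and Cnnm3 1.37 ± 0.228 and 1.46 ± 0.324 FPKM (SD, n = 3 each), with differences of -0.06 ± 0.19 and -0.05 ± 0.17 on log2(FPKM + 1) (SE; limma adjusted p = 0.997 for both). Cnnm4 did not pass the filter, at 0.541, 0.381 and 0.401 FPKM in MSC replicates 0, 1 and 2, 1.04 FPKM in the Cancer-labelled library, and 0.683, 0.575 and 0.794 FPKM in vehicle replicates 1, 3 and 4, with each MSC library under each vehicle library. Cnnm1 stayed at or under 0.266 FPKM in every library. In the whole list of CNNM and magnesium transport genes, 5 of 14 tested had a positive and 9 a negative difference, with a median of -0.04 beside -0.05 over all genes. Mrs2, the mitochondrial magnesium channel, measured 7.36 ± 1.93 FPKM in MSC and 4.83 ± 0.339 FPKM in vehicle livers (SD, n = 3 each; limma adjusted p = 0.822), and Slc41a3, a magnesium transporter, 1.97 ± 0.213 and 2.89 ± 0.243 FPKM (limma adjusted p = 0.804); the groups did not overlap for either.

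The enzymes that prenylate and trim CAAX tails had 5 of 11 tested members with a positive difference (median -0.02), and none had groups apart. Reported signalling partners of PRL proteins had 8 of 13 positive (median 0.02), other VH1-like phosphatases 9 of 21 (median -0.02) and classical tyrosine phosphatases 8 of 18 (median -0.08). The last list also counts Acp1 (difference 0.007), a low molecular weight phosphatase outside the classical class. Ptpn9, a phosphatase of internal membranes, measured 3.39 ± 1.19 FPKM in MSC and 6.03 ± 1.64 FPKM in vehicle livers (SD, n = 3 each; limma adjusted p = 0.720) without overlap. Immediate early genes, the class in which PRL-1 was first placed, had 14 of 20 positive with a median of 0.35. Their summed level was 165 to 267 FPKM in MSC, 110 to 162 FPKM in vehicle and 299 FPKM in the Cancer-labelled library, which was the highest. The cause of these levels was not tested. Of the 20 tested, 1 had groups that did not overlap. This was Csrnp1, a nuclear protein, at 3.06 ± 0.941 FPKM in MSC and 1.88 ± 0.287 FPKM in vehicle livers (SD, n = 3 each, limma adjusted p = 0.828). Genes of the p53 response had 7 of 14 positive (median 0.01), with Aen, a nuclease, at 1.74 ± 0.312 FPKM in MSC and 2.83 ± 0.167 FPKM in vehicle livers (SD, n = 3 each; limma adjusted p = 0.692).

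**Figure D5:**
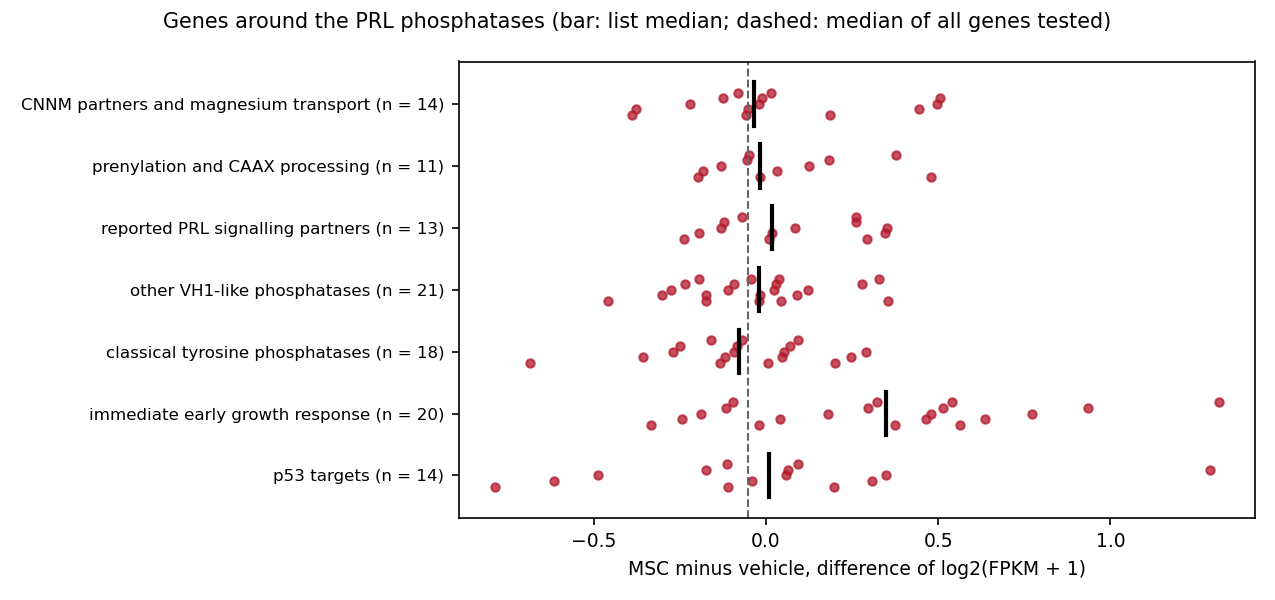
Each point is the MSC minus vehicle difference of log2(FPKM + 1) of 1 tested gene, for 7 lists of genes around the PRL phosphatases; black bars are list medians and the dashed line is the median of all genes tested (-0.05). The immediate early list has its median at 0.35 and the other lists between -0.08 and 0.02.

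In the Cancer-labelled library 21 of 127 list genes tested were past the 2-fold mark as higher and 0 as lower, beside 7.05% and 1.21% of all genes. Immediate early genes made up 12 of the 21, of 23 tested: Ccn2 measured 31.1 FPKM against 8.13, 3.30 and 3.48 FPKM in vehicle replicates 1, 3 and 4, and Ccn1 16.7 FPKM against 2.86, 2.03 and 1.65 FPKM. Gadd45b measured 15.4 FPKM against 2.46, 3.41 and 4.14 FPKM. Of the reported PRL partners 5 of 15 were past the mark. Cdh1, the epithelial cadherin, measured 28.1 FPKM against 4.51, 1.75 and 1.20 FPKM, Ezr, which links membrane and actin, 17.8 FPKM against 3.20, 1.88 and 1.31 FPKM, and the small GTPase Rhoc 18.8 FPKM against 7.11, 4.93 and 3.54 FPKM. Among phosphatases, Dusp1 (12.7 FPKM against 6.35, 4.27 and 3.38), Ptpn14 (2.24 FPKM against 0.508, 0.155 and 0.292) and Ptpn13 (1.904 FPKM against 0.363, 0.105 and 0.098) were past the mark, and among magnesium transporters Nipal1 (6.21 FPKM against 1.88, 2.40 and 2.74). No prenylation or p53 gene was past it. The bile duct marker sum given above was highest in this library, and its part in these values was not tested. Nipal1 (7.52 FPKM) and Dusp1 (14.4 FPKM) were higher still in MSC replicate 0.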

How the data were processed

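The authors deposited 1 FPKM column per library, per the file headers. StringTie 2.1.6, HISAT2 2.2.1, cutadapt 1.9 and FastQC 0.11.9 are named in the submitters' processing notes, which list GRCm38 and mm10 as builds and give no role; strand handling and the division of reads between overlapping genes are not given in the sources used here.

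Values were analysed as log2(FPKM + 1), which understates the change of low genes. MSC minus vehicle was fitted with limma 3.58.1 (R 4.3.3; eBayes with trend, Benjamini-Hochberg) over genes with at least 1 FPKM in 3 of 6 libraries; members' SE came from the same fit without the filter. The fit was run on simulated data with known changes, where only the sign of the median estimates was required to be right. No power is read from that check. For the Cancer-labelled library, past the mark means a difference of at least 1 from the vehicle mean and a value outside the vehicle range, with no test. Exons and coding bases came from GENCODE M21 and the upstream stretch from RefSeq GRCm38.p6, which held a sequence for 2 of 3 members and none for Ptp4a3. Members, lists and tests were chosen with earlier results of these data known. Named genes are the members, CNNM genes, the genes most alike, up to 3 of lowest p without overlap per list, and up to 3 per list of largest difference past the mark in the Cancer-labelled library. Python 3.11.15, Biopython 1.88, pandas 2.3.3 and matplotlib 3.10.9 were used. Alternatives covered pseudocount, scaling, filter, limma settings, the Cancer-labelled library's place and each library left out; rescaling without mitochondrial genes and the alternatives for the Ptp4a1 sum were added after seeing the data.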

Additional observations from a re-analysis of the deposited data

How the results depend on the processing

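The difference of ENSMUSG00000026064 (1.97) stayed positive under every alternative run, at 1.68 to 2.26 as each library was left out, 1.25 at a pseudocount of 5 and 0.27 summed with ENSMUSG00000117310. Its groups did not overlap, so leaving out a library or changing the pseudocount could not turn its sign, and only the size is informative there. In the Cancer-labelled library summing the records turned 0.44 into -0.33. As each library was left out, ENSMUSG00000117310 ran from -0.34 to 0.25, Ptp4a2 from -0.36 to -0.12 and Ptp4a3 from -0.15 to 0.06. Ptp4a3 was -0.24 when Cancer-labelled and vehicle libraries were pooled. In that library Ptp4a3 (0.76) was 1.504 and 0.24 at pseudocounts of 0.1 and 5, 1.15 as TPM, 0.45 after centring and 0.42 after quantile normalization, and Ptp4a2 was -0.23 after centring. The 1001 genes past the mark there became 2126 and 276 at pseudocounts of 0.1 and 5 and 2105 as TPM. The 2 genes called between MSC and vehicle became 1 under that pooling and 1 to 8 with each library left out (8 without vehicle replicate 1). The list genes gave 0 calls in all 15 alternatives. As TPM the median of all genes was -0.14. The causes were not tested. No paired analysis was possible because the MSC and vehicle replicate numbers share only 1 value. The depth is unknown, so no counting error can be given for low genes such as Ptp4a3.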
